A study of Mus musculus with 6 samples.

Results

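The genes described here are 10 early response and heat shock genes, Fos, Fosb, Jun, Junb, Egr1, Atf3, Ier2, Dusp1, Hspa1a and Hspa1b. They were chosen by name, and 10 of 10 were found among the 23420 genes of the table. Tuft cells are a rare chemosensory cell type of the intestinal epithelium, and the study asked which taste receptors those of the ileum express. The 6 libraries form 1 group and come from C57BL/6J mice of the genotype Gfi1b-eGFP, which carry green fluorescent protein at the Gfi1b locus and received no treatment that the labels name. Gfi1b also acts in blood cells, and the sort required EpCam and excluded CD45 and dead cells. Before sorting, the epithelium was shaken off in warmed EDTA buffer and digested with Dispase. No library of undissociated epithelium was analysed here, so the levels in the tissue and any change during isolation cannot be told apart.

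Immediate-early genes are transcribed within minutes of a stimulus and need no newly made protein. Kinase cascades reach them through factors already present in the cell, such as serum response factor, the ETS proteins that bind beside it and CREB. Many encode transcription factors themselves, and the FOS and JUN proteins pair to form AP-1. Heat shock genes answer instead to heat shock factor, which is released when misfolded proteins occupy the chaperones of the cell. Both programs are known to start while solid tissue is being taken apart for cell sorting.

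Transcripts of all 10 genes were present in every library, and most were abundant. The values are TPM, the share of transcripts that come from a gene per 1000000, which is corrected for transcript length so that genes can be compared. Together the 10 genes held between 0.0927% and 0.176% of the TPM of a library. Their median mean level was 99.6 TPM, against 28.1 TPM for the 6986 genes averaging at least 10 TPM. Spread between libraries was ordinary for most of them. The median SD on the log2(TPM + 1) scale was 0.42, against 0.44 for the same 6986 genes. In 7 of the 10 the highest library was at least 2 times the lowest, as in 66.3% of those 6986 genes.

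**Figure D1:**
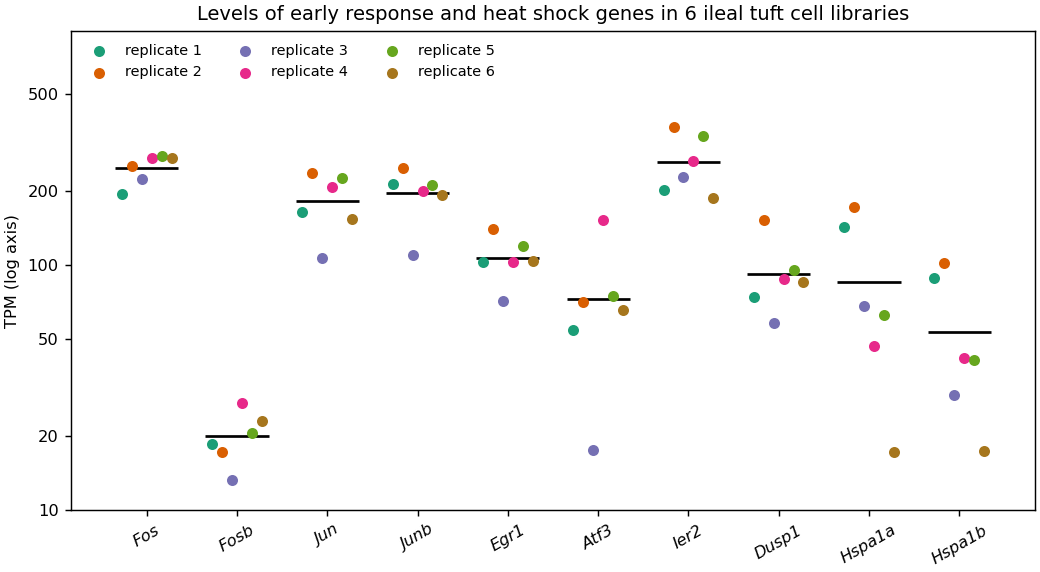
TPM of each of the 10 genes in the 6 libraries, on a log axis, with 1 coloured point per library and a bar at the mean of the 6. Fos stays between 195 and 278 TPM, Fosb lies lowest on average, and Atf3, Hspa1a and Hspa1b are spread most widely.

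Among the AP-1 subunits, Fos, the founding member of its family, read 195, 254, 224, 274, 278 and 274 TPM from replicate 1 through 6 and averaged 249.99 ± 33.5 (SD, n = 6). Ranked among the genes above 0 of its library, it lay between the 95.4th and the 97.3rd percentile. Fos had the smallest coefficient of variation of the 10 genes, 13.4%. All of replicates 4 to 6 lay above all of replicates 1 to 3, as for 2.93% of the 6986 genes.

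Fosb encodes a close relative of FOS. Its libraries read 18.5, 17.2, 13.3, 27.5, 20.6 and 23.1 TPM from replicate 1 through 6 and averaged 20.03 ± 4.93 (SD, n = 6). As for Fos, the libraries 4 to 6 were all above 1 to 3. Fos exceeded Fosb in 6 of 6 libraries, by 9.99 to 16.9 times (median 12.7). On the log2(TPM + 1) scale the difference was 3.60 ± 0.277 (SD, n = 6), with p = 0.031 by an exact two-sided permutation of signs. That p is the smallest that 6 libraries allow. Over the 5 pairs of genes compared, the adjusted p of this permutation test was 0.0521, which missed 0.05. With such a floor no pair could pass on its own after adjustment.

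Jun and Junb encode the subunits with which FOS proteins pair, and JUNB is the weaker activator. Jun read 164, 237, 107, 208, 226 and 154 TPM from replicate 1 through 6 and averaged 182.8 ± 49.8 (SD, n = 6). Junb read 214, 249, 110, 201, 213 and 193 TPM from replicate 1 through 6 and averaged 196.7 ± 46.6 (SD, n = 6). Both were lowest in replicate 3 and highest in replicate 2. The 2 genes could not be ordered, since Junb was the higher in 4 of 6 libraries and the difference of 0.11 ± 0.197 on the log2(TPM + 1) scale (SD, n = 6) lay within its spread (p = 0.312 by exact permutation of signs, also after adjustment). Jun was below Fos in 6 of 6 libraries, with a log2 difference of -0.49 ± 0.374 (SD, n = 6; p = 0.031 by exact permutation of signs, 0.0521 after adjustment). That gap was widest in replicate 3, where Fos was 2.09 times Jun, and narrowest in replicate 2, where it was 1.07 times Jun.

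Exons of Junb overlap those of Prdx2, a peroxiredoxin gene on the opposite strand, over 173 bases. The paper names no strand-specific step in library preparation, alignment or counting, so reads of these bases may come from either gene. Prdx2 read 238, 168, 378, 233, 217 and 175 TPM from replicate 1 through 6. It was lowest in replicate 2, where Junb was highest, and highest in replicate 3, where Junb was lowest. Replicate 6 was next to lowest for both genes. The part of Prdx2 reads in the values of Junb was not tested. Jun overlaps an antisense transcript, Junos, over 232 bases, for which the table has no row.

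Egr1 encodes a zinc finger factor of the same early wave. Its libraries read 103, 141, 71.4, 103, 120 and 104 TPM from replicate 1 through 6 and averaged 107.0 ± 22.9 (SD, n = 6). Atf3 encodes a stress-induced relative of the CREB family that also pairs with JUN proteins. Its libraries read 54.5, 70.5, 17.6, 153, 74.6 and 65.2 TPM from replicate 1 through 6 and averaged 72.6 ± 44.4 (SD, n = 6). Egr1 kept within 1.97-fold, while Atf3 ranged over 8.71-fold, with replicate 3 at the bottom and replicate 4 at the top.

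Ier2, a nuclear protein of the early response, had the highest mean of the 10 genes. Its libraries read 203, 367, 228, 265, 337 and 187 TPM from replicate 1 through 6 and averaged 264.4 ± 73.3 (SD, n = 6), and replicate 3 was not its lowest library. Dusp1 encodes a phosphatase that switches off the MAP kinases which induce these genes. Its libraries read 74.3, 152, 57.9, 87.7, 95.5 and 84.9 TPM from replicate 1 through 6 and averaged 92.1 ± 32.3 (SD, n = 6). Like Jun, Junb and Egr1, Dusp1 was highest in replicate 2 and lowest in replicate 3.

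By mean TPM the early response genes thus ran in the order Ier2, Fos, Junb, Jun, Egr1, Dusp1, Atf3 and Fosb. Each neighbouring pair in this order overlapped in range over the libraries. The gap between means exceeded the SD of both genes for Fos and Junb, for Jun and Egr1 and for Atf3 and Fosb, and not for the others.

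Hspa1a and Hspa1b encode the stress-inducible form of the chaperone HSP70. Hspa1a read 142, 173, 67.8, 46.5, 62.6 and 17.3 TPM from replicate 1 through 6 and averaged 84.9 ± 59.8 (SD, n = 6). Hspa1b read 88.9, 102, 29.5, 41.8, 40.8 and 17.4 TPM from replicate 1 through 6 and averaged 53.3 ± 33.9 (SD, n = 6). Replicates 1 and 2 were the highest for both genes and replicate 6 the lowest. Their ranges of 10.0-fold and 5.83-fold were, with that of Atf3, the widest of the 10 genes.

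The 2 genes lie close together on chromosome 17 and are nearly the same sequence. Each is a gene of 1 exon, with coding parts of 1926 and 1929 bases that are 99.4% identical, and 52.7% of the 75-base words of the Hspa1a transcript also occur in that of Hspa1b. How reads were shared out between them is therefore an estimate of RSEM, the authors' counting program, and Hspa1a took between 49.8% and 69.7% of their sum. Hspa1a was the higher in 5 of 6 libraries, and the difference of Hspa1b from Hspa1a, -0.56 ± 0.430 on the log2(TPM + 1) scale (SD, n = 6), missed 0.05 (p = 0.0625 by exact permutation of signs, 0.0781 after adjustment). Exons of Hspa1a also overlap the gene model Gm20481 on the other strand over 564 bases.

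The likeness extends upstream of both genes. The 250 bases before each start are shown because they differ at 3 positions only, 44, 47 and 249 counted from the left end, which are in capitals. The changes from Hspa1a to Hspa1b are C44T, T47C and T249G. The sequences are from RefSeq on GRCm38.p6, both on the minus strand, at chr17:34972157-34972406 for Hspa1a and chr17:34959239-34959488 for Hspa1b.
Hspa1a: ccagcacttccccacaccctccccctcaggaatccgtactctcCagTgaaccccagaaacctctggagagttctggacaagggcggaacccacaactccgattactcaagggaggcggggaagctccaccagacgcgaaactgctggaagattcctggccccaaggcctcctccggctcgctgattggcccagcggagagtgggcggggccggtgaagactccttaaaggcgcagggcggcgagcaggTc
Hspa1b: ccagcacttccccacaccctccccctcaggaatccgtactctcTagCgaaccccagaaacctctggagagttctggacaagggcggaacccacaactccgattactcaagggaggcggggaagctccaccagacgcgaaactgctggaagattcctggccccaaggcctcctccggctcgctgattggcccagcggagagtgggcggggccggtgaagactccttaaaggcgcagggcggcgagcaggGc

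The sum of the 2 genes depends little on how their shared reads were divided. It read 231, 275, 97.3, 88.3, 103 and 34.7 TPM from replicate 1 through 6, averaged 138.3 ± 93.1 (SD, n = 6) and ranged over 7.91-fold. Replicates 1 and 2 stood above the other 4 libraries, and replicate 6 below the rest. Hspa1a alone was higher in every one of replicates 1 to 3 than in any of 4 to 6, as were 16.8% of the 6986 genes, whereas the sum and Hspa1b overlapped between these sets.

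Hspa8 encodes the constitutive form of HSP70, which folds new proteins in unstressed cells. Its libraries read 1581, 1741, 1775, 1423, 1453 and 897 TPM from replicate 1 through 6 and averaged 1478 ± 319 (SD, n = 6). Hspa8 exceeded Hspa1b in 6 of 6 libraries, by 17.1 to 60.2 times, and by 4.98 ± 0.736 on the log2(TPM + 1) scale (SD, n = 6; p = 0.031 by exact permutation of signs, 0.0521 after adjustment). Hspa1a and Hspa1b together came to 3.87% to 15.8% of Hspa8.

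Joint change across libraries was then measured as the Pearson r of log2(TPM + 1) over the 6 libraries, for the 45 pairs of the 10 genes. In 9 of 45 pairs r was at least 0.8, a share of 20%, where 4.75% of all pairs of the 6986 genes reached that value and 3.72% of all pairs of genes averaging at least 1 TPM. Of these 9 pairs, 8 lay within the 28 pairs of early response genes and 1 was Hspa1a with Hspa1b. None of the 16 pairs of an early response gene with a heat shock gene reached 0.8, and 5 of them were negative. The pairs share genes and libraries, so they are not independent of one another.

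**Figure D2:**
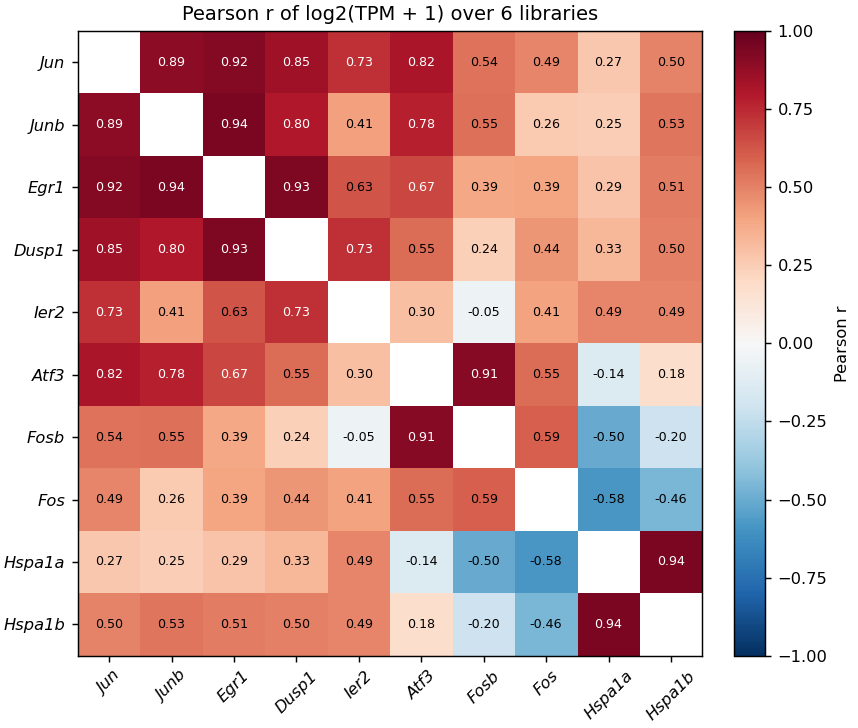
Pearson r of log2(TPM + 1) over the 6 libraries for each pair of the 10 genes, on a scale from -1 (blue) to 1 (red). Jun, Junb, Egr1 and Dusp1 form a block of values from 0.80 to 0.94, Hspa1a and Hspa1b reach 0.94 with each other, and Fos is at -0.58 and -0.46 with them.

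All 6 pairs among Jun, Junb, Egr1 and Dusp1 were at 0.80 or above, although none passed after adjustment. For Jun with Egr1, Pearson r was 0.922 (exact permutation p = 0.00694, adjusted p = 0.162) and Spearman rho was 0.829 (exact p = 0.0583, adjusted p = 0.438; n = 6). For Junb with Egr1, r was 0.944 (exact permutation p = 0.0167, adjusted p = 0.162) and rho was 0.600 (exact p = 0.242, adjusted p = 0.473; n = 6). For Egr1 with Dusp1, r was 0.935 (exact permutation p = 0.0181, adjusted p = 0.162) and rho was 0.943 (exact p = 0.0167, adjusted p = 0.375; n = 6). Without replicates 2 and 3, which were farthest from the median of the first gene in all 3 pairs, r was 0.663, 0.423 and 0.745. The other 5 pairs at 0.8 or above, Jun with Junb, Jun with Atf3, Jun with Dusp1, Junb with Dusp1 and Fosb with Atf3, had exact permutation p from 0.0139 to 0.0847 for r (adjusted p from 0.162 to 0.381) and rho from 0.657 to 0.943 (exact p from 0.0167 to 0.175, adjusted p from 0.375 to 0.463; n = 6). Without the 2 libraries farthest from the median their r ranged from -0.145 to 0.745, so none of these 5 kept 0.8.

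Over the 45 pairs, 7 had an unadjusted exact permutation p of Pearson r below 0.05 and none an adjusted one (smallest adjusted p = 0.162). By Spearman rho the counts were 3 and 0 (smallest adjusted p = 0.375). The exact permutation test over 720 pairings gives no p under 0.00139, so no pair could pass on its own after adjustment over 45. When TPM was rescaled without Rn45s, the ribosomal RNA precursor, and Gm20594, which together vary widely between libraries, 3 pairs passed after adjustment, namely Junb with Egr1, Junb with Dusp1 and Egr1 with Dusp1 (exact permutation test, adjusted p = 0.0417 each).

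Replicate 3 decided several of these values. Without it, 4 of the 9 pairs stayed at 0.8 or above, namely Junb with Egr1 (0.881), Junb with Dusp1 (0.830), Egr1 with Dusp1 (0.948) and Hspa1a with Hspa1b (0.992). Jun with Atf3 went from 0.818 to 0.398, Jun with Junb from 0.891 to 0.653, Jun with Egr1 from 0.922 to 0.756, Jun with Dusp1 from 0.849 to 0.736 and Fosb with Atf3 from 0.909 to 0.784. Other pairs rose past 0.8 without replicate 3. Jun with Ier2 went from 0.728 to 0.984 and Egr1 with Ier2 from 0.628 to 0.846. Junb with Hspa1a went from 0.250 to 0.855 and Junb with Hspa1b from 0.534 to 0.832. The number of pairs at 0.8 or above without replicate 3 was therefore 8. Leaving out any other single library kept all 9 pairs at 0.8 or above.

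Fos did not reach 0.8 with any of the other 9 genes, where 1.55% of 6985 genes averaging at least 10 TPM reached it with Fos. Jun reached it with 4 of the other 9 (2.35% of those genes), Junb with 3 (3.58%), Egr1 with 3 (2.33%), Dusp1 with 3 (1.6%), Atf3 with 2 (2.35%), Fosb with 1 (1.95%), Hspa1a with 1 (8.72%), Hspa1b with 1 (8.75%) and Ier2 with 0 (1.82%). For Fos, r was 0.491 with Jun, 0.260 with Junb, 0.392 with Egr1 and 0.594 with Fosb (exact permutation p = 0.356, 0.660, 0.451 and 0.228, adjusted p = 0.552, 0.742, 0.616 and 0.545; n = 6). Spearman rho for these 4 pairs was 0.314, -0.143, 0.600 and 0.600 (exact p = 0.564, 0.803, 0.242 and 0.242, adjusted p = 0.746, 0.840, 0.473 and 0.473). Leaving out replicates 1 and 3, whose Fos level was farthest from its median, gave -0.438, -0.880, -0.800 and 0.717, so the first 3 changed sign. The positive r of Fos with Jun, Junb and Egr1 therefore rested on those libraries, while that with Fosb did not.

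For Hspa1a with Hspa1b, r was 0.941 (exact permutation p = 0.0125, adjusted p = 0.162) and rho 0.771 (exact p = 0.103, adjusted p = 0.463; n = 6). With replicates 2 and 6 left out, r was 0.805. Shared reads also tie the values of these 2 genes to each other. Against Fos, r was -0.581 for Hspa1a and -0.459 for Hspa1b (exact permutation p = 0.215 and 0.338, adjusted p = 0.545 each; rho = -0.657 and -0.429, exact p = 0.175 and 0.419, adjusted p = 0.463 and 0.651; n = 6). Leaving out replicates 1 and 3 gave -0.754 and -0.783.

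The libraries fall into replicates 1 to 3, with 1.56% to 2.13% of TPM in Gm20594, and replicates 4 to 6, with 5.18% to 5.64%. These sets of 3 are too small for a correlation within each, so values were centred on the mean of their set. All 9 pairs then stayed at 0.8 or above, and the number of such pairs went from 9 to 14 (31.1%), where 6.18% of all pairs of the 6986 genes reached 0.8 after the same centring. The added pairs included 4 of the 16 between an early response and a heat shock gene, namely Jun with Hspa1a and with Hspa1b, Junb with Hspa1b and Atf3 with Hspa1b. Centring changed the sign of 6 pairs. Fos with Fosb went from 0.594 to -0.222, and Fos with Hspa1a (0.127), Fos with Hspa1b (0.0659), Fosb with Hspa1a (0.363), Fosb with Hspa1b (0.642) and Atf3 with Hspa1a (0.691) went from negative to positive. The difference between the sets was in the same direction for Fos and Fosb. It was in opposite directions for the 2 genes of each other pair that changed sign. Fos averaged 224.5 TPM in replicates 1 to 3 and 275.5 TPM in replicates 4 to 6, while the sum of Hspa1a and Hspa1b averaged 201.1 and 75.5 TPM. Of the 10 genes, Fos and Fosb lay entirely higher in replicates 4 to 6, where 2.93% of the 6986 genes did.

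**Figure D3:**
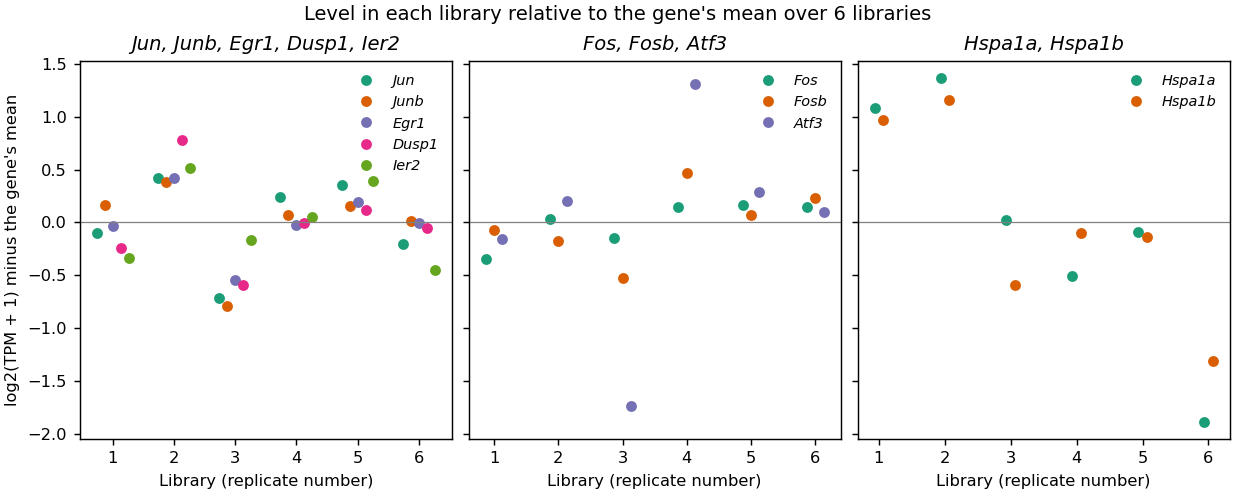
Each gene's log2(TPM + 1) minus its mean over the 6 libraries, by library, with 1 point per gene and library. Jun, Junb, Egr1 and Dusp1 sit below their means in replicate 3 and above them in replicate 2, Atf3 shows the lowest point in replicate 3 of the early genes, and Hspa1a and Hspa1b are highest in replicates 1 and 2 and lowest in replicate 6.

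By library, 7 of the 10 genes had their highest value in replicate 2, where 22.2% of the 6986 genes had theirs. In replicate 3, 6 of the 10 had their lowest value, where 13.7% of those genes had theirs. Fos was lowest in replicate 1 (14.3% of those genes), and Ier2, Hspa1a and Hspa1b in replicate 6 (22.2%), while no gene of the 10 was lowest in replicates 2, 4 or 5 (7.73%, 16.2% and 25.8%). Fosb and Atf3 were highest in replicate 4 (10.6%) and Fos in replicate 5 (8.07%), and none of the 10 was highest in replicates 1, 3 or 6 (22%, 28.2% and 9%). Replicate 3 was among the lowest 2 libraries for 8 of the 10 genes, where it was for 26.4% of the 6986, and among the highest 2 for none, where it was for 44.3%.

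A list of 49 further early response genes, all found in the table, showed the same libraries at its ends. Of its 30 genes averaging at least 10 TPM, 14 (46.7%) were highest in replicate 2 and 13 (43.3%) lowest in replicate 3, beside the 22.2% and 13.7% of all genes. The 5 most abundant were Plk2, a polo-like kinase (402.9 ± 118 TPM), Nfkbia, the inhibitor of NF-kappaB (213.3 ± 49.5 TPM), Gadd45g, a stress-induced regulator of MAP kinase signalling (159.3 ± 52.4 TPM), Klf4, a transcription factor of differentiated epithelium (95.7 ± 22.5 TPM) and Btg2, which restrains proliferation (81.9 ± 18.8 TPM; SD, n = 6 each). Plk2, Klf4 and Btg2 were lowest in replicate 3, and Nfkbia and Gadd45g in replicate 6. Early response genes were not all present. Ctgf was listed at 0 in every library, and Nr4a3, Cebpb, Fosl1 and Egr3, named after their values were seen, averaged 0.0383, 0.198, 0.655 and 0.760 TPM.

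The 31 further heat shock proteins and chaperones were placed differently among the libraries, which was not tested. Of the 24 with a mean of at least 10 TPM, 5 (20.8%) were highest in replicate 2, 8 (33.3%) were highest in replicate 3 and 3 (12.5%) were lowest there. After Hspa8, the most abundant were Hsp90ab1, the constitutive cytosolic HSP90 (939.6 ± 201 TPM), Hsp90b1 and Hspa5, the HSP90 and HSP70 of the endoplasmic reticulum (494.6 ± 69.8 and 399.8 ± 56.8 TPM), and Hsp90aa1, the inducible HSP90 (294.4 ± 79.7 TPM; SD, n = 6 each). Dnajb1, which delivers clients to HSP70, was named after its values were seen. It was at 172, 141, 51.7, 77.6, 79.1 and 44.4 TPM in replicates 1 to 6, with replicates 1 and 2 on top as for Hspa1a and Hspa1b. No other gene of this list had both these libraries on top. Hsph1 and Hspe1, also named after their values were seen, were highest in replicate 6 (67.9 and 229 TPM). The small heat shock genes Hspb1, Hspb8 and Cryab, also named after their values were seen, averaged 1.02, 0.435 and 0.382 TPM and were each listed at 0 in at least 3 libraries.

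**Figure D4:**
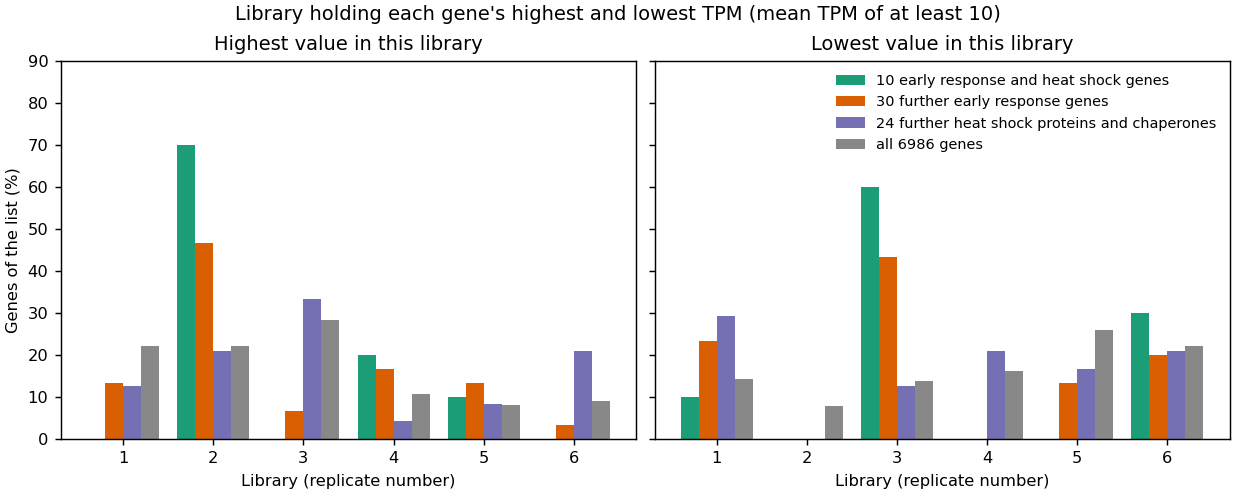
Share of the genes of each list whose highest (left) or lowest (right) TPM falls in each library, in percent, for genes averaging at least 10 TPM. Replicate 2 holds the highest value of 70.0% of the 10 genes and of 46.7% of the further early response genes, against 22.2% of all genes, and replicate 3 the lowest of 60.0% and 43.3%, against 13.7%.

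The kinases and factors upstream of these genes were largely present. Of 19 listed genes, 18 were above 0 in all libraries, and 11 had a mean of at least 10 TPM. Mapk3, which encodes ERK1, had 162.7 ± 39.0 TPM, Map2k2, a kinase that activates it, had 101.9 ± 20.9 TPM, Map2k1, a close relative of Map2k2, had 44.5 ± 13.9 TPM and Hsf2, a heat shock factor, had 33.1 ± 11.9 TPM (SD, n = 6 each). Hsf1, the main stress-activated heat shock factor, averaged 22.4 TPM, and Srf, serum response factor, 8.81 TPM, both named after their values were seen. In the list of 10 ATF4 and unfolded protein response genes, Atf4 (142.7 ± 18.4 TPM), Herpud1 (122.6 ± 22.8 TPM), Xbp1 (78.5 ± 28.8 TPM), Ddit3 (40.6 ± 11.1 TPM) and Nupr1 (29.5 ± 27.4 TPM) were the most abundant (SD, n = 6 each). Ddit3, which encodes CHOP, was lowest in replicate 3, as Atf3 was, and so was Herpud1, while Xbp1 was highest there. Of the 6 genes of this list averaging at least 10 TPM, 2 were lowest in replicate 3 and 2 highest. Of the 6986 genes, 13.7% were lowest and 28.2% highest there. Nupr1, a stress-induced chromatin protein, was at 2.71 to 6.20 TPM in replicates 1 to 3 and at 51.2 to 57.6 TPM in replicates 4 to 6.

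The genes whose pattern was most like that of Fos, among 6976 genes averaging at least 10 TPM, were Wdyhv1 (r = 0.982), Lrp5 (0.977), Dgkz (0.977), Lrrk1 (0.972) and Ppp1r12a (0.961). Those most like Hspa1b were Osbp (0.993), Hdac1 (0.989), Tnrc18 (0.987), Sept8 (0.986) and Cpm (0.982). These values are the highest of many over 6 libraries, and they describe these libraries without a test.

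The stretches upstream of Fos, Dusp1 and Jun are shown because they hold sequence elements known for this class of gene. Capitals mark TGACG on either strand, the core of the cAMP response element bound by CREB and ATF proteins, in Fos and Dusp1, and GAANNTTC, a pair of inverted heat shock factor units, in Jun. In Dusp1 the core on the opposite strand overlaps the second to give the full palindrome TGACGTCA. The sequences are from RefSeq on GRCm38.p6, at chr12:85473640-85473889 on the plus strand for Fos, chr17:26508520-26508722 on the minus strand for Dusp1, from which 47 bases annotated as exon were left out, and chr4:95052223-95052472 on the minus strand for Jun.
Fos: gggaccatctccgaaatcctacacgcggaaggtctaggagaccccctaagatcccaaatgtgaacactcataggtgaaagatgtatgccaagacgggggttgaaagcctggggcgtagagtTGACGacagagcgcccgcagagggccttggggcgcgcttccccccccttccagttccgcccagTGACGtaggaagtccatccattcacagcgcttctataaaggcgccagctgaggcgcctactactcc
Dusp1: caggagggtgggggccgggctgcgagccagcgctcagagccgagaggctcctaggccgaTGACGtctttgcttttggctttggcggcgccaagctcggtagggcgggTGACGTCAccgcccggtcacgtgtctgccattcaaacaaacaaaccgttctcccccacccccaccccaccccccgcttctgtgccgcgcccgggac
Jun: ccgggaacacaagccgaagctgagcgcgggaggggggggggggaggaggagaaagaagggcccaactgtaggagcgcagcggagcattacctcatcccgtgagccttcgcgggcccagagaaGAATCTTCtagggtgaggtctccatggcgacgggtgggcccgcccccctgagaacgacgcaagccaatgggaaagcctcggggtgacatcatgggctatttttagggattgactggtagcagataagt

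Upstream sequence was searched for 8 of the 10 genes over the 250 bases before the RefSeq start, and Ier2 and Egr1 were not included. For Dusp1 this window lies inside the GENCODE span given below, and the search included the 47 bases annotated as exon. TGACG was found in 5 of the 8 (Fos, Fosb, Junb, Atf3 and Dusp1), where 17.8% of 32851 windows of the same length hold it. GAANNTTC was found in 3 of the 8 (Jun, Hspa1a and Hspa1b), where 6.69% of windows hold it. The windows of Hspa1a and Hspa1b are 98.8% identical and hold it at the same position, -104, so these 2 are not independent. TTCNNGAA (7.17% of windows) and the CArG box of serum response factor (1.47%) were found in none of these 8 windows, and TATAA on either strand (22.8%) in Fos alone. Sequence farther upstream was not searched, so these absences hold for the windows only. A match is a description of the letters and was not tested as a binding site.

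In annotation GENCODE M21 on GRCm38, Fos lies on chromosome 12 from 85473890 to 85477273 on the plus strand. On the minus strand are Fosb (chromosome 7, 19302696 to 19310051), Jun (chromosome 4, 95049034 to 95052222), Junb (chromosome 8, 84974484 to 84978718), Ier2 (chromosome 8, 84661331 to 84662852), Dusp1 (chromosome 17, 26505590 to 26562128), Atf3 (chromosome 1, 191170296 to 191218039), Hspa1b (chromosome 17, 34956436 to 34959238) and Hspa1a (chromosome 17, 34969190 to 34972156).

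Library measures that differ beside these results were as follows. The summed TPM of 13 tuft cell markers, all of them above 0 in every library, was between 7136 and 12022, highest in replicates 1 and 2 and lowest in replicate 3, although replicates 5 and 6 lay close to it at 7167 and 7176. Hspa1a and Hspa1b were highest in the same replicates 1 and 2, as was the sum of 8 enterocyte markers (16279 and 12690, against 7993 to 11473 elsewhere). Most of that sum was Fabp1, at 12794 and 9867 TPM in replicates 1 and 2. Of these markers only Fabp1 and Vil1 had both libraries on top. Alpi (15.2 and 14.6 TPM) and Fabp6 (1477 and 1290 TPM) were lowest in them. The sum of 5 stem cell markers was highest in replicate 2 (803) and lowest in replicate 6 (326), as were Hspa1a and Hspa1b. Unlike these 2 genes, it was higher in replicate 3 (776) than in replicate 1 (726). Olfm4 made up most of it (650 TPM in replicate 2 and 235 TPM in replicate 6), while Lgr5, Ascl2 and Slc12a2 were lowest in other libraries. The sum of 7 goblet cell markers was lowest in replicate 2 (1053) and highest in replicate 6 (5118). The summed TPM of 7 lymphocyte markers found in the table, of 8 listed, was 172 in replicate 3 and 433 and 449 in replicates 5 and 6, and Gzma, a granule protease of intraepithelial lymphocytes, ranged from 10.4 TPM in replicate 1 to 158 TPM in replicate 6. Lymphocytes also express Fos, Jun and Junb. Ptprc, which encodes CD45 and was part of the gate, was at 74.2 to 171 TPM, highest in replicate 1. It made up 171 of the 202 TPM of the lymphocyte sum in replicate 1 and 84.5 of the 172 TPM in replicate 3. Of the other lymphocyte markers, Gzma, Ccl5 and Cd3g were lowest in replicate 1, and Cd3e, Gzmb and Cd7 in replicate 3. Of 4 stromal markers, Col1a2 was at 0 in every library and the others were at 0 outside replicates 5 and 6. Paneth cell genes summed to 3578 to 21516 TPM, highest in replicate 4, the library in which Atf3 and Fosb were highest. The part of other cells in the levels of the 10 genes was not tested. In RNA from pooled cells, more cells of a type and more RNA per cell cannot be told apart. The number of genes listed above 0, from 13044 to 13308, did not set replicate 3 apart (13228).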

How the data were processed

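RNA from sorted ileal tuft cells of 6 libraries in 1 group was sequenced by a modified SMART-Seq2 protocol. The authors aligned paired-end reads to the mm10 transcriptome with Bowtie and deposited TPM per gene from RSEM, which shares out reads that align to several transcripts. The submitters' processing notes also name TopHat and DESeq2, and neither is used here. TPM keeps no sequencing depth, so depth is unknown and no counting interval was computed. Columns were matched to replicates by number. Whether each replicate is 1 mouse or a pool is not given in the sources used here, so p-values measure the spread between these libraries.

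The 10 genes, the gene lists and the tests were chosen with earlier results of these data known. Values were analysed as log2(TPM + 1). Genes were compared within libraries by permuting the signs of the differences exactly (64 assignments, two-sided), with Benjamini-Hochberg adjustment over 5 pairs of genes. Pearson r and Spearman rho used all 720 pairings, adjusted over 45 pairs. Genes named are the 10, the 5 most abundant of each list and the 5 most like Fos and Hspa1b with a mean of at least 10 TPM, and others are marked in the text. Of the genes that this rule names, 1 is not reported here. Steps were tested on simulated data. Software was matplotlib 3.10.9, scipy 1.17.1, pandas 2.3.3 and numpy 2.4.6 under Python 3.11.15.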

Additional observations from a re-analysis of the deposited data

How the results depend on the processing

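The number of pairs of the 10 genes with r of at least 0.8 was 9 with a pseudocount of 0.1 and with values under 0.1 TPM set to 0, 10 under both rescalings, 6 by Spearman rho, 14 after centring within replicates 1 to 3 and 4 to 6, and 8 to 14 with each library left out in turn (14 without replicate 1 and 8 without replicate 3). With replicates 2 and 3 both left out, a setting chosen after the data were seen, it was 6. The number past an adjusted p of 0.05 was 0 in each of these fits that used all 6 libraries but 3 after rescaling without Rn45s and Gm20594. The share of all gene pairs at 0.8 or above was 3.72% for genes averaging at least 1 TPM, 4.75% for those averaging at least 10 and 6.18% for the latter after centring, a setting also added after the data were seen. The cause of these changes was not tested. After centring, 4 pairs had an unadjusted exact p below 0.05, but the 36 pairings left give no p under 0.0278, so the 0 after adjustment there says nothing about stability.

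The exact Mann-Whitney test without pairing, over 924 assignments, put Fos against Fosb (difference 3.60) and Hspa8 against Hspa1b (4.98) past 0.05 with adjusted p = 0.00541 each; this test does not use the pairing of values within a library. With each library left out, the differences were 3.52 to 3.66 for Fos against Fosb, 0.06 to 0.15 for Junb against Jun, -0.57 to -0.37 for Jun against Fos, -0.67 to -0.44 for Hspa1b against Hspa1a and 4.80 to 5.16 for Hspa8 against Hspa1b. No test is given for them, because 0.0625 is the lowest p that 5 libraries allow. Means of the 10 genes moved by less than their SD when TPM was rescaled by median of ratios. Leaving out 1 of 6 libraries can never move a mean by its SD, so only the ranges are given for that step. With each library left out, the mean of Atf3 ran from 56.5 to 83.6 TPM and that of Hspa1a from 67.3 to 98.4 TPM. No paired analysis was possible because the 6 libraries form 1 group, so that no replicate numbers are shared between groups; the differences within a library pair genes, not groups. Unknown depth limits the precision of low genes.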
